A study of Mus musculus with 3 samples.

Results

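TRAJ33, TRAJ34, TRAJ35, TRAJ37, TRAJ38 and TRAJ39 are 6 neighbouring joining segments in the middle of the TRAJ array of the mouse T cell receptor (TCR) α locus. They were chosen by name and position. A cell was counted as using one of them when it was in the deposited count matrix and had exactly 1 productive TCRα contig, and that contig was assigned to the segment. This held for 536 of 6982 cells with exactly 1 productive α chain, and the 6 segments were 6 of 43 TRAJ segments found in those cells. By sorted population these were 136 cells of the double-positive stage, which carries both CD4 and CD8 (DP), and 143 cells of the CD4 single-positive stage (CD4 SP). A further 125 were progenitors of regulatory T cells (Tregs) marked by CD25 (CD25+ TRP) and 65 were progenitors with low Foxp3 (Foxp3lo TRP). The remaining 14 were CD73- Treg and 53 were CD73+ Treg cells.

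All populations came from 1 pool of thymocytes from 8 female mice aged 7 to 12 weeks. The strain is labelled C56Bl/6 with the Tcliβ transgene, which supplies a fixed TCRβ chain, a single intact TCRα allele (TCRα+/-) and a Foxp3-GFP reporter, and the DP, CD4 SP, progenitor and Treg cells all carried these alleles. CD4 SP cells were sorted without CD25, Foxp3 or CD73. The sort gates of all populations required Vα2 on the surface, which TRAV14 family genes encode. CD8+ cells were removed from the thymus before the sort, except for DP, which came from unenriched thymocytes. The fixed β chain and the Vα2 gate limit these cells as a model of a full repertoire, because the β chain and most of the V genes are set by the strain and the sort.

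A TCRα chain is made when recombination joins a TRAV gene to a TRAJ segment, trims bases from both ends and adds untemplated bases between them. The joined stretch encodes complementarity-determining region 3 (CDR3), which contacts peptide and MHC. On 1 allele, rounds of joining proceed from the J segments nearest the V genes towards those nearest the constant gene TRAC, while V use moves outwards to more distant V genes, so that segments in the middle of the array are reached after the V-proximal ones. DP cells carry chains before or during selection, CD4 SP cells have been positively selected on MHC class II, and Treg progenitors and Tregs have in addition received agonist signals. TRAJ33 is also known as the J segment that pairs with TRAV1 in the invariant chain of mucosal-associated invariant T (MAIT) cells.

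The germline sequences of the 6 segments are shown because they set the end of every CDR3 described here. They are given 5′ to 3′ on the plus strand of chromosome 14 in GRCm38, as annotated in GENCODE M21, with the codons of the conserved F/W-G-X-G motif in capitals. The CDR3 ends at the F or W of this motif.
TRAJ39, chr14:54179962-54180024: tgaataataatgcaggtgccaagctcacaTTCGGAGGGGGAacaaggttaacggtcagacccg
TRAJ38, chr14:54180574-54180635: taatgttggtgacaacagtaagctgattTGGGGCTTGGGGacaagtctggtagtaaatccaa
TRAJ37, chr14:54181518-54181577: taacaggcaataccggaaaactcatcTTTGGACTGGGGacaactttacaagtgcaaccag
TRAJ35, chr14:54183774-54183838: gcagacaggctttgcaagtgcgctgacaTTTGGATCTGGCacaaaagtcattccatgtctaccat
TRAJ34, chr14:54184699-54184756: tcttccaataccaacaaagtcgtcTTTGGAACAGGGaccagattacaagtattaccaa
TRAJ33, chr14:54185358-54185414: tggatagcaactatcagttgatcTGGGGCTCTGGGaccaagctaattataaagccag
All 6 are annotated as functional TCR J genes. TRAJ39, TRAJ37, TRAJ35 and TRAJ34 have the F form of the motif, and TRAJ38 and TRAJ33 have the W form. TRAJ39 lies 40.5 kb from TRAC and TRAJ33 lies 35.1 kb from it. TRAJ36, which lies between TRAJ37 and TRAJ35 at chr14:54182402-54182464, is annotated as a pseudogene, holds no such motif, and was assigned to 0 contigs. TRAJ39 brings the most germline bases into a CDR3, 32 up to and including the F codon, and TRAJ33 the fewest, 26.

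Shares below are shares of the cells with exactly 1 productive α chain, which numbered 1266 in DP and 1849 in CD4 SP, 1783 and 804 in the CD25+ and Foxp3lo TRP populations, and 223 and 1057 in the CD73- and CD73+ Treg populations. Each share is followed by its exact 95% interval (Clopper-Pearson), which reflects counting error alone and treats cells of the same clone as if they were independent. With 1 pool and 1 sorted sample per population there was no replicate, and no p-value was computed. A difference was called where the 2 intervals did not overlap, and the same rule over all TRAJ segments gives the background. A segment found in neither of the 2 groups compared is left out of the background. Where this was so for TRAJ35 or TRAJ38, the member still counts among the 6 as not called. The contigs of the 6 segments were as deep as those of the other segments. Their median ran from 14 unique molecular identifiers (UMIs) in DP to 21 in CD25+ TRP, against 14 and 22 for other TRAJ, and the shallowest had 3 UMIs. The rows of the count matrix as used here carry no gene names, so the sorted populations were not checked against marker genes.

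The 6 segments together were used most in DP and least in CD73+ Treg. The share was 10.7% in DP (9.09 to 12.6) and 7.73% in CD4 SP (6.56 to 9.05). Among progenitors it was 7.01% in CD25+ TRP (5.87 to 8.30) and 8.08% in Foxp3lo TRP (6.29 to 10.2). Among Tregs it was 6.28% without CD73 (CD73- Treg, 3.47 to 10.3) and 5.01% with CD73 (CD73+ Treg, 3.78 to 6.51). Ranked by share the order was DP, Foxp3lo TRP, CD4 SP, CD25+ TRP, CD73- Treg and CD73+ Treg, and no population had an interval apart from the next in this order. The share in CD4 SP was lower than in DP, with a ratio of 0.720 (0.565 to 0.917), and the bounds that decide this, 9.05 in CD4 SP and 9.09 in DP, lie close together. The share in CD73+ Treg was lower than in CD4 SP, with a ratio of 0.648 (0.464 to 0.894), and its bounds, 6.51 in CD73+ Treg and 6.56 in CD4 SP, are as close.

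Counting each different CDR3 once took out clone size, and it also merged separate joining events with the same protein sequence. The picture changed for the earlier stages. The 6 segments made up 11.5% of different CDR3 in DP (126 of 1092, 9.70 to 13.6) and 10.9% in CD4 SP (102 of 937, 8.96 to 13.1). The progenitors followed with 9.75% for CD25+ TRP (99 of 1015, 8 to 11.7) and 10.8% for Foxp3lo TRP (56 of 517, 8.29 to 13.8). The Tregs had 7.53% for CD73- Treg (14 of 186, 4.18 to 12.3) and 6.73% for CD73+ Treg (43 of 639, 4.91 to 8.96). CD4 SP and DP then had overlapping intervals, with a ratio of 0.943 (0.719 to 1.23). Counting each nucleotide sequence with its TRAV and TRAJ once gave 9.63% in CD4 SP (8.08 to 11.4) and 10.8% in DP (9.12 to 12.7), also overlapping. CD73+ Treg stayed lower than CD4 SP, with a ratio of 0.618 (0.422 to 0.891), although the bounds that decide this both round to 8.96.

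**Figure D1:**
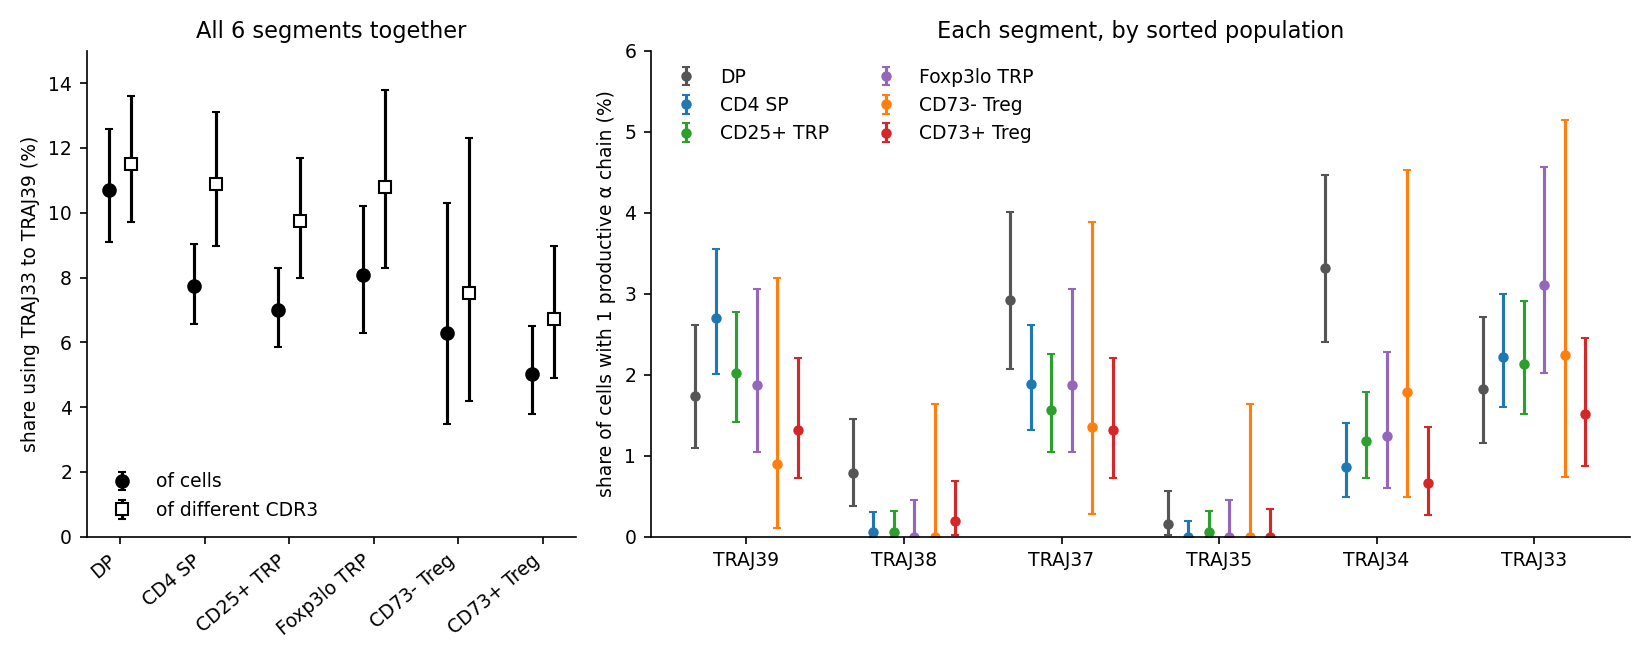
Share (%) using TRAJ33 to TRAJ39 in the 6 sorted populations, all segments together on the left (filled circles, of cells; open squares, of different CDR3) and each segment on the right (of cells); bars are exact 95% intervals. The share of cells was 5.01% in CD73+ Treg and 10.7% in DP, and TRAJ34 was highest in DP at 3.32%.

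The 6 segments were used at very different levels. TRAJ33 was found in 148 cells, TRAJ39 in 139, TRAJ37 in 132, TRAJ34 in 100, TRAJ38 in 14 and TRAJ35 in 3. TRAJ35 was the least used of all 43 segments in both DP and CD4 SP. It had 0 of 1849 cells in CD4 SP, with an exact upper bound of 0.199%, and 2 of 1266 in DP. Its remaining cell was a CD25+ TRP cell. TRAJ38 was ranked 42nd of 43 in CD4 SP and 39th in DP.

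TRAJ34 and TRAJ38 were the members that were lower in CD4 SP than in DP. TRAJ34 had a share of 0.865% in CD4 SP (16 cells, 0.495 to 1.40) and 3.32% in DP (42 cells, 2.40 to 4.46). It ranked 30th of 43 segments in CD4 SP and 7th in DP. The ratio was 0.261 (0.137 to 0.474) by cells and 0.399 (0.195 to 0.765) by different CDR3. TRAJ38 had 0.0541% in CD4 SP (1 cell, 0.00137 to 0.301) and 0.790% in DP (10 cells, 0.379 to 1.45). By different CDR3 the TRAJ38 intervals overlapped, at 0.107% in CD4 SP (0.00270 to 0.593) and 0.916% in DP (0.440 to 1.68).

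TRAJ33, TRAJ37 and TRAJ39 had overlapping intervals in this comparison. TRAJ39 had a share of 2.70% in CD4 SP (2.01 to 3.55) and 1.74% in DP (1.09 to 2.62), a ratio of 1.56 (0.925 to 2.70). TRAJ33 had 2.22% in CD4 SP (1.60 to 3) and 1.82% in DP (1.16 to 2.71), a ratio of 1.22 (0.715 to 2.13). By different CDR3 the ratio of TRAJ33 was 1.91 (1.09 to 3.40), from 3.84% in CD4 SP (2.71 to 5.28) over 2.01% in DP (1.27 to 3.03). TRAJ37 had 1.89% in CD4 SP (1.32 to 2.62) and 2.92% in DP (2.07 to 4.01), a ratio of 0.648 (0.396 to 1.06).

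Read against all segments, the members' counts lay near the background. By cells, 2 of 6 members were lower in CD4 SP than in DP, where 25.6% of the 43 segments were lower, and 0 of 6 were higher, where 18.6% were higher. By different CDR3, 1 of 6 members was lower, TRAJ34, where 6.98% of segments were lower, and 0 of 6 were higher, where 2.33% were. Over the 40 segments with at least 4 cells in both populations, the median ratio of CD4 SP over DP was 0.797, and over the 4 such members it was 0.934. TRAJ33, which lies next to TRAJ34 in the array, had overlapping intervals, and TRAJ35 on its other side had too few cells to compare.

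**Figure D2:**
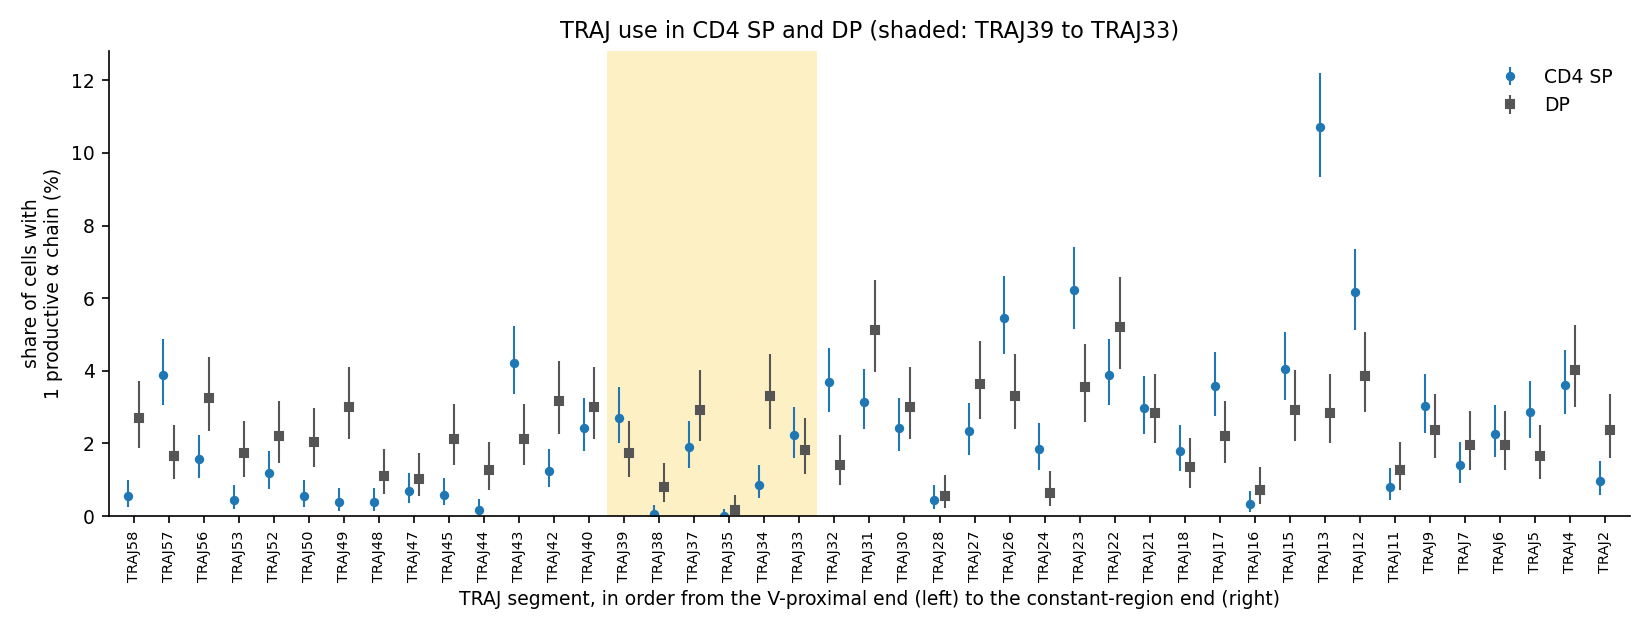
Share of cells (%) using each of the 43 TRAJ segments in CD4 SP (circles) and DP (squares), in the order of the array, with TRAJ39 to TRAJ33 shaded; bars are exact 95% intervals. Within the shaded block TRAJ34 stands at 0.865% in CD4 SP and 3.32% in DP, while TRAJ39 and TRAJ33 have overlapping intervals.

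The makeup of the 6-segment cells also differed between CD4 SP and DP. TRAJ34 made up 11.2% of the 143 CD4 SP cells (6.53 to 17.5) and 30.9% of the 136 DP cells (23.2 to 39.4). TRAJ39 made up 35% of the CD4 SP cells (27.2 to 43.4) and 16.2% of the DP cells (10.4 to 23.5). Both pairs of intervals were apart by cells. By different CDR3, TRAJ39 had 31 of 102 in CD4 SP and 21 of 126 in DP, and TRAJ34 had 13 of 102 and 38 of 126. No intervals were computed for these. The members share 1 total, so a lower share of TRAJ34 raises the shares of the rest. TRAJ33 made up 28.7% of the CD4 SP cells (21.4 to 36.8) and 16.9% of the DP cells (11 to 24.3), and TRAJ37 made up 24.5% (17.7 to 32.4) and 27.2% (19.9 to 35.5), with overlap for both.

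From CD4 SP onwards no single member was called in the comparisons of whole populations by cells. CD25+ TRP cells used TRAJ33 at 2.13%, TRAJ39 at 2.02%, TRAJ37 at 1.57%, TRAJ34 at 1.18%, and TRAJ35 and TRAJ38 at 0.0561% each. In CD25+ TRP against CD4 SP, 0 of 6 members were lower and 0 of 6 higher, where 4.65% of segments were lower and 4.65% higher. Foxp3lo TRP cells used TRAJ33 most, at 3.11% (2.02 to 4.56), which ranked it 12th of 43 there, followed by TRAJ37 and TRAJ39 at 1.87% each and TRAJ34 at 1.24%. TRAJ35 and TRAJ38 had 0 of 804 cells in Foxp3lo TRP, with an exact upper bound of 0.458% for each. Against CD4 SP, 0 of 6 members were lower in Foxp3lo TRP, where 4.76% of 42 segments were, and 0 of 6 were higher, where 2.38% were. The ratio of TRAJ33 in Foxp3lo TRP over CD4 SP was 1.40 (0.817 to 2.36).

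CD73- Treg gave only 14 cells of the 6 segments, which limits every comparison with this population. They were 5 TRAJ33, 4 TRAJ34, 3 TRAJ37 and 2 TRAJ39 cells. Against CD25+ TRP the ratio of the group was 0.895 (0.476 to 1.56) and against Foxp3lo TRP it was 0.777 (0.402 to 1.40), so neither a moderate loss nor a moderate gain was detectable at this depth. Lower members were 0 of 6 in both comparisons, where 0% of segments were lower. Higher members were also 0 of 6 in both, where 2.33% of segments were higher than in CD25+ TRP and 0% higher than in Foxp3lo TRP.

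In CD73+ Treg the share was lower than in CD4 SP for the 4 members with enough cells for a ratio, most of all for TRAJ39. TRAJ33 was used by 1.51% of CD73+ Treg and 2.22% of CD4 SP cells, TRAJ39 by 1.32% and 2.70%, TRAJ37 by 1.32% and 1.89%, and TRAJ34 by 0.662% and 0.865%. TRAJ35 and TRAJ38 had too few cells for a ratio, and TRAJ38 went the other way, with 2 CD73+ Treg cells and 1 CD4 SP cell. The 4 other ratios were below 1, with a median of 0.692, while 19 of 36 ratios over all segments were below 1 and their median was 0.970. The ratio of TRAJ39 was 0.490 (0.250 to 0.900), although its intervals in the populations overlapped. By the rule of separate intervals 0 of 6 members were lower in CD73+ Treg than in CD4 SP, where 14.3% of 42 segments were, and 0 of 6 were higher, where 4.76% were. Against CD73- Treg the group ratio was 0.799 (0.437 to 1.56), with 0 of 6 members called in either direction, where 2.38% of segments were lower and 2.38% higher.

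Among the other segments, the profile over the 6 populations was most like that of the group in TRAJ27, TRAJ31 and TRAJ11. Likeness was the sum of absolute differences between profiles scaled to sum to 1, over 32 segments with at least 50 cells, and came to 0.103 for TRAJ27, 0.105 for TRAJ31 and 0.195 for TRAJ11. TRAJ27 was used by 1.70% of CD73+ Treg and 3.63% of DP cells. The 6 populations share 1 pool and 1 set of libraries, so this is a description only. The neighbouring blocks as cut here, TRAJ40 to TRAJ45 and TRAJ27 to TRAJ31, also had lower shares in CD4 SP than in DP. TRAJ40 to TRAJ45 had a share of 8.65% in CD4 SP (7.41 to 10) and 11.7% in DP (9.97 to 13.6), with bounds that barely overlapped. TRAJ27 to TRAJ31 had 8.33% in CD4 SP (7.11 to 9.68) and 12.3% in DP (10.6 to 14.3), with intervals apart. TRAJ32, directly next to TRAJ33, is in neither block and went the other way with intervals apart. It had 3.68% in CD4 SP (2.87 to 4.64) and 1.42% in DP (0.845 to 2.24), and no block that includes it was computed. Within TRAJ40 to TRAJ45, TRAJ43 was higher in CD4 SP, at 4.22% against 2.13%, while TRAJ42, TRAJ44 and TRAJ45 were lower.

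The deposited cluster numbers divide each population further, and CD73+ Treg was the population in which the 6 segments differed between clusters. In CD73+ Treg cells of cluster 9 they were used by 10.7% (25 of 234, 7.03 to 15.4), against 3.40% of CD73+ Treg cells in all other clusters (28 of 823, 2.27 to 4.88). Cluster 9 holds no CD73- Treg, CD4 SP or DP cells. By different CDR3 the shares were 10.4% in cluster 9 (20 of 193, 6.45 to 15.6) and 5.06% in the other clusters (24 of 474, 3.27 to 7.44), with overlapping intervals. The difference was spread over TRAJ33 with 7 of 25 cells, TRAJ37 with 7, TRAJ39 with 6, TRAJ34 with 3 and TRAJ38 with 2, and these were the only TRAJ38 cells of CD73+ Treg. No single member had intervals apart, so 0 of 6 were higher and 0 of 6 lower in cluster 9, where 4.76% of 42 segments were higher and 4.76% lower.

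The 25 cells in cluster 9 were not 1 clone. They held 20 different CDR3, the largest with 3 cells. A CDR3 also present in CD73+ Treg cells of other clusters was carried by 3 of the 25 cells, a CDR3 present in CD4 SP by 1 and a CDR3 present in DP by 2. TRAJ40 to TRAJ45 were used by 13.2% of cluster 9 (9.18 to 18.3) and 7.78% of the other clusters (6.04 to 9.82), and TRAJ27 to TRAJ31 by 8.12% (4.96 to 12.4) and 8.63% (6.80 to 10.8). Contig depth was close, with a median of 18 UMIs in cluster 9 and 19 in the other clusters. Without cluster 9 the share of the 6 segments in CD73+ Treg was 3.40%, further below the 7.73% of CD4 SP than with it. This follows from leaving out the cells with the higher share. TRAJ39 then stood at 0.972% in CD73+ Treg (0.421 to 1.91) and 2.70% in CD4 SP (2.01 to 3.55), with intervals apart. This too comes from leaving out cells with a higher share, 2.56% in cluster 9 (0.947 to 5.50), so it adds no separate evidence. With all CD73+ Treg cells the TRAJ39 intervals overlapped, and no background over all segments was computed without cluster 9.

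In CD4 SP and CD25+ TRP the clusters compared had overlapping intervals. CD4 SP cells used the 6 segments at 8.20% in cluster 1 (6.29 to 10.5) and 8.56% in cluster 2 (6.61 to 10.9). CD25+ TRP cells used them at 8.42% in clusters 1 and 2, 5.74% in cluster 5 (3.78 to 8.30) and 4.76% in cluster 7 (2.80 to 7.51). In cluster 3 their share was 3.26% for CD73+ Treg (12 of 368, 1.70 to 5.63) and 11.6% for CD73- Treg (10 of 86, 5.72 to 20.3), with intervals apart by a narrow margin. By different CDR3 the shares were 5.38% for CD73+ Treg (2.81 to 9.21) and 12.7% for CD73- Treg (6.24 to 22), which overlap.

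**Figure D3:**
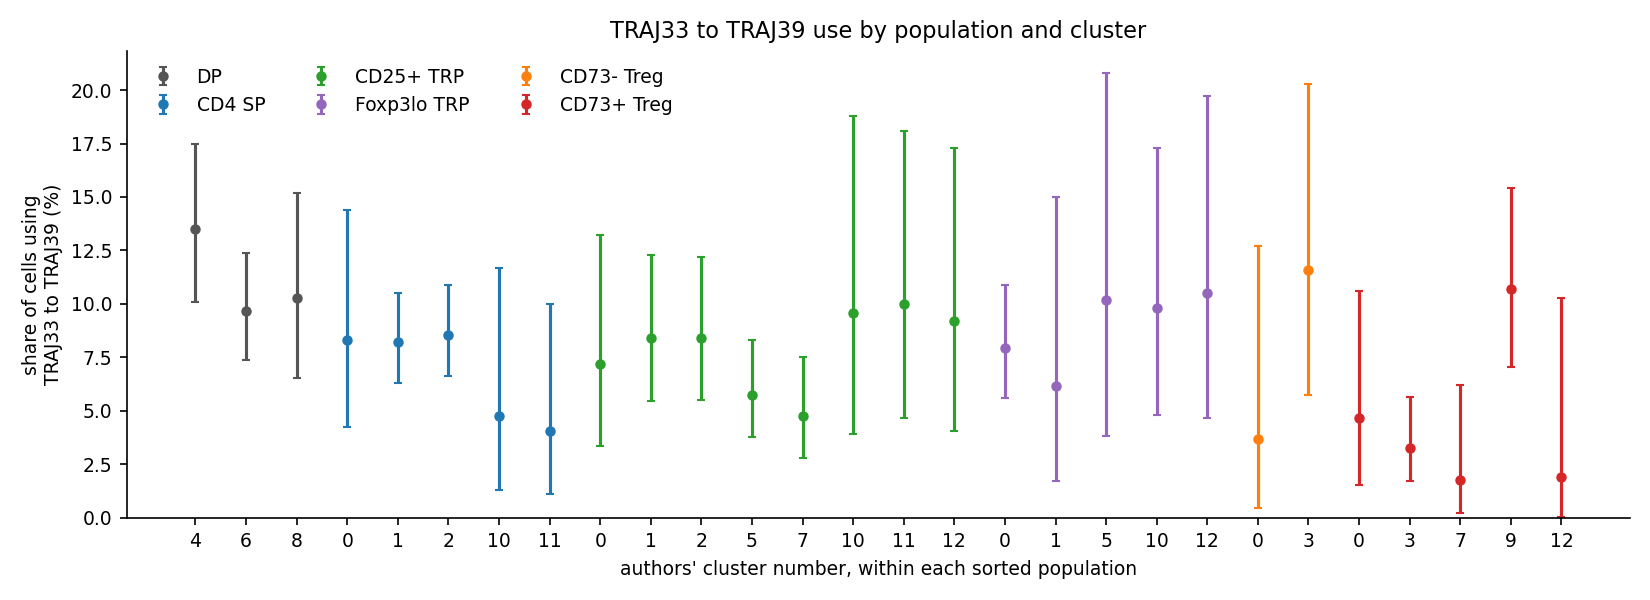
Share of cells (%) using TRAJ33 to TRAJ39 in each deposited cluster with at least 50 cells of a population, coloured by population; bars are exact 95% intervals. In CD73+ Treg, cluster 9 stands at 10.7% and cluster 3 at 3.26%.

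Within DP the 3 main clusters had overlapping intervals for the group, and TRAJ37 was the 1 member called between any pair of them. The group was used by 13.5% of DP cells in cluster 4 (10.1 to 17.5), 9.66% in cluster 6 (7.38 to 12.4) and 10.3% in cluster 8 (6.56 to 15.2). TRAJ37 was used by 5.44% in cluster 4 (19 of 349, 3.31 to 8.37) and 1.21% in cluster 6 (7 of 580, 0.487 to 2.47), with intervals apart. In cluster 4 against cluster 6, 1 of 6 members was thus higher, where 14% of the 43 segments were, and 0 of 6 were lower, where 16.3% were. In cluster 4 against cluster 8, 0 of 6 were higher, where 11.9% of 42 segments were, and 0 of 6 lower, where 9.52% were. In cluster 6 against cluster 8, 0 of 6 were higher, where 0% of segments were, and 0 of 6 lower, where 2.33% were. By different CDR3 the TRAJ37 shares were 5.47% in cluster 4 (3.27 to 8.51) and 1.37% in cluster 6 (0.552 to 2.80), also apart. TRAJ33 was used by 0.573% in cluster 4 (2 cells, 0.0695 to 2.05), 1.90% in cluster 6 (11 cells, 0.950 to 3.37) and 3.74% in cluster 8 (8 cells, 1.63 to 7.23), with overlap for each pair. TRAJ39 was used by 0 of 214 cells in cluster 8, with an exact upper bound of 1.71%. TRAJ34 stood at 3.72%, 3.45% and 3.27% in clusters 4, 6 and 8. Median RNA UMIs per cell were 1585 in cluster 4, 1616.5 in cluster 6 and 1146 in cluster 8.

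The 536 cells held 354 different CDR3, of which 273 were found in 1 cell each and 63 in at least 2 populations. The 12 sequences found in at least 5 cells accounted for 88 cells. That was 16.4% of the cells of the 6 segments (13.4 to 19.8), against 45% of the cells of other TRAJ (43.8 to 46.2). In CD4 SP it was 27.3% of the cells of the 6 segments (20.2 to 35.3) and 54.2% of those of other TRAJ (51.8 to 56.5), and in DP 2.94% (0.807 to 7.36) and 18.3% (16.1 to 20.7). The largest CDR3 in CD4 SP had 113 cells for other TRAJ, 17 for TRAJ40 to TRAJ45, 11 for TRAJ27 to TRAJ31 and 10 for the 6 segments. The share of cells with a repeated CDR3 was not computed for these blocks or by segment, so it is not shown to be particular to the 6. A repeated CDR3 need not be 1 clone, as the nucleotide sequences given further on show. At a fixed 20 cells, the expected number of different CDR3 was 19.8 for the 6 segments and 19.9 for other TRAJ in DP, and 18.3 and 18.9 in CD4 SP. It was 19.1 and 19.4 in CD25+ TRP, 18.9 and 19 in Foxp3lo TRP, and 18.2 and 18.3 in CD73+ Treg. CD73- Treg had too few cells of the 6 segments for this number. Other TRAJ pool many more segments, which by itself can raise it. For TRAJ40 to TRAJ45 and TRAJ27 to TRAJ31 it was 19.5 and 19.5 in DP, 17.2 and 17.7 in CD4 SP, and 17.9 and 18.9 in CD25+ TRP. In Foxp3lo TRP these blocks had 18.4 and 17.5, and in CD73+ Treg 18.4 and 18.2.

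TRAJ33 was the most varied member in CD4 SP and CD25+ TRP. In CD4 SP, 20 TRAJ33 cells held an expected 18.5 different CDR3, more than 24 of the 25 other segments with enough cells, whose median was 14.3. In CD25+ TRP the number was 19.5, above all 24 other segments with enough cells, and in Foxp3lo TRP it was 17.2, above 11 of 12. TRAJ37 in CD4 SP gave 13.3 and TRAJ39 gave 15.5. The 41 TRAJ33 cells of CD4 SP held 36 different CDR3, whereas its 50 TRAJ39 cells held 31 and its 35 TRAJ37 cells 21.

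Of the 88 cells with a CDR3 found in at least 5 cells, 39 were CD4 SP and 31 CD25+ TRP. A TRAJ39 sequence of 13 residues was the most frequent, with 14 cells, of which 8 were CD4 SP, 3 CD25+ TRP and 3 CD73+ Treg. The leading TRAJ37 sequence, of 15 residues, followed with 12 cells, 10 of them CD4 SP and 2 CD25+ TRP, and was the only sequence with at least 10 cells in 1 population. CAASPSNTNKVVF was the most frequent TRAJ34 sequence, with 2 DP, 3 CD4 SP and 2 CD25+ TRP cells, all on TRAV14D-3-DV8. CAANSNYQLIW and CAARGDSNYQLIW led TRAJ33 with 7 cells each, and 4 of the 7 cells of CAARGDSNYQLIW were Foxp3lo TRP. Another TRAJ37 sequence, of 14 residues, was found in 4 cells, all CD73+ Treg. Every TRAJ35 and TRAJ38 sequence was found in 1 cell, among them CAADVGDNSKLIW on TRAJ38.

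The nucleotide sequences of the leading CDR3 are shown because they separate 1 expanded clone from the same protein sequence made by several joining events. Bases matching neither the annotated end of the V gene nor the J segment are in capitals.
Leading TRAJ39 sequence, TRAV14-3, form 1: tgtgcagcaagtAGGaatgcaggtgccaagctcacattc
Leading TRAJ39 sequence, TRAV14-3, form 2: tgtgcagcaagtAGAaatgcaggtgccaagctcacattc
Leading TRAJ39 sequence, TRAV14-3, form 3: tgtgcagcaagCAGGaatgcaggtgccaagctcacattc
Leading TRAJ39 sequence, TRAV14N-3, form 4: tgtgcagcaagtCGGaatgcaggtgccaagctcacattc
Leading TRAJ37 sequence, TRAV14-1, form 1: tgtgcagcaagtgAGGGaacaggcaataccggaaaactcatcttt
Leading TRAJ37 sequence, TRAV14-1, form 2: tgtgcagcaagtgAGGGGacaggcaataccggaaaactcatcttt
Leading TRAJ37 sequence, TRAV14-1, form 3: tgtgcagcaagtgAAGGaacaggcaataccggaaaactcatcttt
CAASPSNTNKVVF, TRAV14D-3-DV8, form 1: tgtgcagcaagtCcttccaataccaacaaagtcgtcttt
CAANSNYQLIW, TRAV14-1, form 1: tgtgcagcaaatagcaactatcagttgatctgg
The leading TRAJ39 sequence occurred as 5 nucleotide sequences on 4 TRAV genes, 9 combinations in 14 cells. The leading TRAJ37 sequence occurred as 3 nucleotide sequences on TRAV14-1 alone, with 7, 4 and 1 cells for the forms in the order shown. The form of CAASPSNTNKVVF shown has a single base between V and J and was found in 5 of its 7 cells. The form of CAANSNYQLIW shown has none and was found in 2 CD4 SP cells.

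Different CDR3 of the 6 segments were shared between populations to varying degrees. CD25+ TRP and CD4 SP shared 28, which is 28.3% of the CD25+ TRP sequences and 27.5% of the CD4 SP sequences, against 28.9% and 31.7% for other TRAJ. CD4 SP and DP shared 14, which is 13.7% of the CD4 SP and 11.1% of the DP sequences, against 18.3% and 15.8% for other TRAJ. By cells the gap was wider, since 15.4% of the CD4 SP cells of the 6 segments (9.90 to 22.4) carried a CDR3 also found in DP. For other TRAJ it was 39.3% of the CD4 SP cells (36.9 to 41.6). Frequent CDR3 weigh on these shares, and the largest in CD4 SP had 113 cells for other TRAJ and 10 for the 6 segments. Foxp3lo TRP and CD4 SP shared 11, or 19.6% of the Foxp3lo TRP and 10.8% of the CD4 SP sequences, against 33% and 18.2% for other TRAJ.

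CD73+ Treg and CD73- Treg shared 0 CDR3 of the 6 segments, among 43 and 14 different sequences. The share of 3 sequences in 43, a rough limit for a count of 0, is 6.98%, and the exact bound lies above it. Other TRAJ shared 48, or 8.05% of CD73+ Treg and 27.9% of CD73- Treg sequences. By different sequences, a difference from 8.05% was not called. By cells, 0 of 53 CD73+ Treg cells of the 6 segments carried a CDR3 also found in CD73- Treg, with an exact upper bound of 6.72%. For other TRAJ it was 30.1% of the cells (27.3 to 33). Frequent CDR3 weigh on shares by cells, and the largest in CD73+ Treg had 72 cells for other TRAJ and 4 for the 6 segments. CD73+ Treg shared 3 sequences with CD4 SP, or 6.98% of its own and 2.94% of the CD4 SP sequences, against 18.6% and 13.3% for other TRAJ.

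The 6 segments were joined to TRAV14-1 more often than other TRAJ together, and so, to a lesser degree, were the blocks on both sides of them. TRAV14-1 was joined in 38.2% of the 536 cells (34.1 to 42.5), against 16.3% of the 6446 cells of other TRAJ (15.4 to 17.2). By different nucleotide sequences the shares were 34.4% for the 6 segments (30.1 to 38.9) and 17.6% for other TRAJ (16.5 to 18.8). In these blocks, which leave out TRAJ32, TRAV14-1 was joined in 25.1% of the cells of TRAJ40 to TRAJ45 (21.8 to 28.7) and 31.2% of those of TRAJ27 to TRAJ31 (27.8 to 34.9). The last of these overlaps the interval of the 6 segments. The 3 copies nearest the J array, TRAV14-1, TRAV14-2 and TRAV14-3, together took 60.4% of the cells (56.2 to 64.6), against 33.6% of other TRAJ (32.4 to 34.7). This joint share varied along the array, and it was 75.8% for TRAJ47 to TRAJ58 (72.5 to 79), 65.7% for TRAJ40 to TRAJ45 (61.8 to 69.4), 45.7% for TRAJ27 to TRAJ31 (42 to 49.6) and 18.6% for TRAJ2 to TRAJ26 (17.4 to 19.8), so that the 6 segments stand between their neighbours. Copies of the TRAV14 family are near-identical in sequence and are kept as deposited. The annotated TRAV14D-1 and TRAV14N-1 are 100% identical, as are TRAV14D-2 and TRAV14N-2, while TRAV14-1 differs from its nearest copy, TRAV14N-3, with 93.6% identity over the aligned bases.

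The share of TRAV14-1 in the cells of the 6 segments was higher in CD4 SP than in DP. It was joined in 22.1% of the DP cells of the 6 segments (15.4 to 30) and 16.1% of DP cells of other TRAJ (14 to 18.4), with overlap. In CD4 SP the shares were 39.9% for the 6 segments (31.8 to 48.4) and 12.6% for other TRAJ (11.1 to 14.3). They were 45.6% (36.7 to 54.7) and 18.3% (16.5 to 20.3) in CD25+ TRP, 52.3% (39.5 to 64.9) and 18% (15.3 to 21) in Foxp3lo TRP, and 39.6% (26.5 to 54) and 17.6% (15.3 to 20.1) in CD73+ Treg, all with intervals apart. Within the 6 segments the share in CD4 SP was higher than in DP with intervals apart, whereas for other TRAJ it was 12.6% in CD4 SP and 16.1% in DP. By different nucleotide sequences the shares for the 6 segments were 36.8% in CD4 SP (28.4 to 45.9) and 21.1% in DP (14.5 to 29), which overlap. Read from the V side, 21% of TRAV14-1 cells in CD4 SP (57 of 272, 16.3 to 26.3) and 14.2% in DP (30 of 212, 9.76 to 19.6) were joined to one of the 6 segments, which also overlap.

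**Figure D4:**
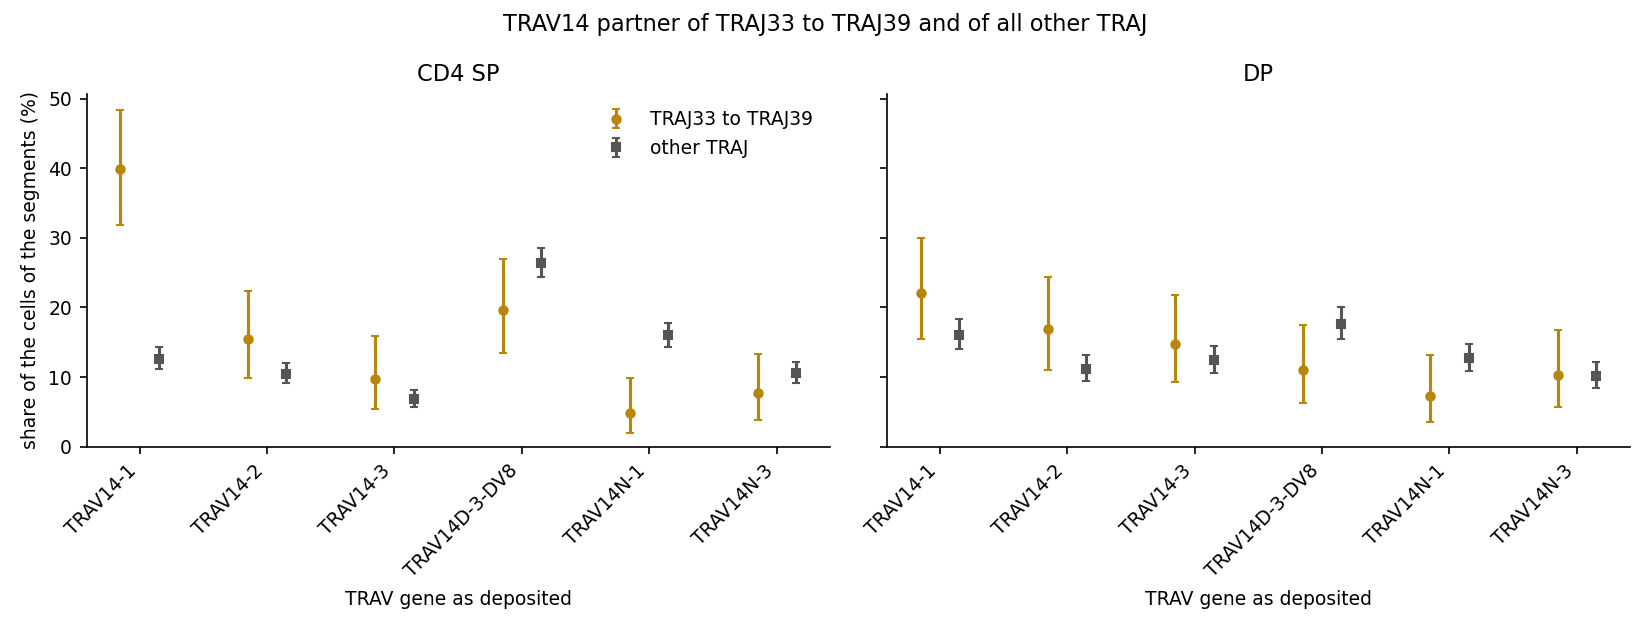
Share (%) of the cells of TRAJ33 to TRAJ39 (circles) and of all other TRAJ (squares) that were joined to each named TRAV14 gene, in CD4 SP (left) and DP (right); bars are exact 95% intervals. TRAV14-1 stands at 39.9% for the 6 segments and 12.6% for other TRAJ in CD4 SP.

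The partners of each member were first counted over all populations. TRAV14-1 was joined in 48% of TRAJ33 cells (39.7 to 56.3), 43.2% of TRAJ37 (34.6 to 52.1), 33.1% of TRAJ39 (25.4 to 41.6) and 29% of TRAJ34 cells (20.4 to 38.9). These pooled shares mix populations in unlike proportions, since 42 of 100 TRAJ34 cells but 23 of 148 TRAJ33 cells were DP. Within DP the order was another one, with TRAV14-1 in 39.1% of TRAJ33 cells (19.7 to 61.5), 28.6% of TRAJ34 (15.7 to 44.6), 16.2% of TRAJ37 (6.19 to 32) and 13.6% of TRAJ39 (2.91 to 34.9), all overlapping. TRAJ34 had the largest share of TRAV14D-3-DV8, a distant copy, at 30% (21.2 to 40), against 10.1% of TRAJ33 cells (5.78 to 16.2), with intervals apart. Counted by different nucleotide sequences, the shares were 26.4% for TRAJ34 (17.7 to 36.7) and 11.4% for TRAJ33 (6.50 to 18), which overlap. In the 16 TRAJ34 cells of CD4 SP, TRAV14D-3-DV8 was joined in 8 and TRAV14-1 in 1, whereas TRAV14-1 was joined in 12 of the 42 TRAJ34 cells of DP. TRAV14-3, the copy nearest the J array, was joined in 10.1% of the cells of the 6 segments (7.66 to 12.9) and 6.69% of other TRAJ (6.09 to 7.32).

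TRAV genes outside the TRAV14 family were joined in 23 cells of the 6 segments, 19 of them in DP. That was 14% of the DP cells (8.63 to 21), against 8.05% of the DP cells of other TRAJ (6.53 to 9.80), with overlap. In CD4 SP it was 0 of 143 cells, with an exact upper bound of 2.55%, against 0.234% of other TRAJ (0.0639 to 0.599). TRAV1, the partner of TRAJ33 in the MAIT chain, was joined to TRAJ33 in 0 of 363 α contigs, and only 1 contig of any kind used TRAV1. All cells had been gated on surface Vα2.

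The J ends were trimmed differently among the members. Over different nucleotide sequences, the median number of germline bases missing from the V-side end was 5 in TRAJ39 (quartiles 3.75 and 8, n = 120), 3 in TRAJ34 (0 and 4, n = 91), 3 in TRAJ33 (1 and 5, n = 132), 2 in TRAJ37 (1 and 3, n = 111), 1.5 in TRAJ38 (n = 14) and 0 in TRAJ35 (n = 3). For the group the median was 3 (1 and 5) and for other TRAJ 4 (1 and 5). The full J end was kept in 28 of 91 TRAJ34 sequences, 25 of 111 TRAJ37 sequences, 21 of 132 TRAJ33 sequences and 7 of 120 TRAJ39 sequences. TRAJ39 sequences clustered at 5 and 8 missing bases, with 28 sequences each, and the forms of the leading TRAJ39 sequence shown lack 8 bases. Chance matches of untemplated bases can make the missing end look shorter than it was.

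**Figure D5:**
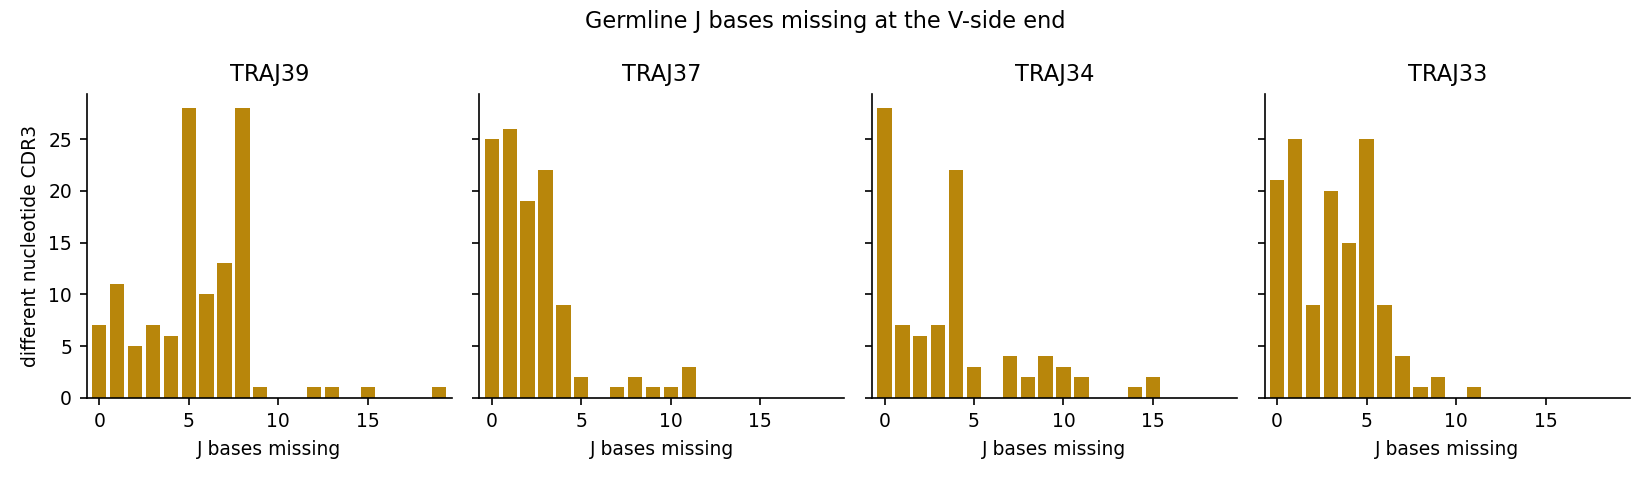
Number of different nucleotide CDR3 by germline J bases missing at the V-side end, for the 4 members with at least 100 cells. TRAJ39 has peaks of 28 sequences at 5 and at 8 bases, and TRAJ34 has 28 sequences with 0 bases missing.

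CDR3 length followed the segments. The median was 15 residues for TRAJ38 and TRAJ35, 14 for TRAJ39 and TRAJ37, and 13 for TRAJ34 and TRAJ33, over different amino acid sequences. For the group it was 13 residues, with a range from 8 to 17, and for other TRAJ 14, with a range from 7 to 22. The group median was 13 in CD4 SP and 14 in DP.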

How the data were processed

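Gene expression, hashtag and TCRα libraries were made from the same pooled cells with the 10x Genomics 5' chemistry, per the labels' protocols, so the 3 GEO samples are 3 library types. Builds mm10 and GRCm38 and the tools Seurat 3.1.1 and Cell Ranger 3.1.0 are named, without roles, in the submitters' processing notes. Filters on cells and the treatment of doublets are not stated there. The authors deposited a matrix of UMI counts for 14790 unnamed gene rows and 12208 cells, metadata with a hashtag class and cluster per cell, a contig table with read and UMI counts, and CDR3α counts per barcode. Here the matrix served for barcodes and UMI totals. Of the 12771 barcodes with contigs, 7379 are in the matrix. The hashtag class Treg was taken as CD73- Treg by elimination. Clonotype, CDR3 and J gene matched between tables in 6982 of 6982 cells. Cells with 2 productive α chains (330) were left out.

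Shares, exact intervals and ratios were computed with Python 3.11.15, pandas 2.3.3 and scipy 1.17.1. Ratios need 4 cells in both populations, and their 95% intervals are conditional exact ones. For a count of 0 the limit given is the upper bound of the exact interval, or the share of 3 sequences where different sequences are counted. The expected number of different CDR3 in 20 cells is by analytic rarefaction. J and V ends were matched base by base to GENCODE M21 transcripts. The models of TRAV14-2, TRAV14D-2 and TRAV14N-2 end before those of the other copies, so bases between V and J are not compared. Functions were tested on simulated data. The members, lists, comparisons and named features were chosen with earlier results of these data known. Named were all 6 segments, the most frequent CDR3 of each and any with at least 10 cells in 1 population, TRAV genes with at least 5% of the cells of a population, and the 3 segments of the most like profile; other CDR3 were named after their values were seen. The planned cell type marker list could not be applied, because gene rows are unnamed. Cells cannot be tied to mice.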

Additional observations from a re-analysis of the deposited data

Results flagged for a closer look

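Chains outside the cells described above also used the 6 segments. Among barcodes with exactly 1 productive α chain that are not in the count matrix, 193 of 2747 used them, or 7.03% (6.10 to 8.05). These barcodes have no hashtag class and belong to no population. They held 58 TRAJ39, 46 TRAJ33, 43 TRAJ37, 37 TRAJ34, 8 TRAJ38 and 1 TRAJ35 cells.

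Among cells with 2 productive α chains, 62 of 660 contigs used the 6 segments, or 9.39% (7.28 to 11.9). The mice are labelled as having a single intact TCRα allele, and where the second contig of such a cell came from was not tested. By population the share was 14.3% in DP (12 of 84), 9.09% in CD4 SP (16 of 176), 10.1% in CD25+ TRP (16 of 158), 7.95% in Foxp3lo TRP (7 of 88), 0 of 22 contigs in CD73- Treg and 8.33% in CD73+ Treg (11 of 132).

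Among nonproductive α contigs of cells in the matrix, which cannot make a receptor chain, 41 of 301 used the 6 segments, or 13.6% (9.96 to 18). The share was 13% in DP (6.41 to 22.6), 15.5% in CD4 SP (8 to 26), 13.3% in CD25+ TRP (6.58 to 23.2), 12.9% in Foxp3lo TRP (3.63 to 29.8) and 14.3% in CD73+ Treg (5.43 to 28.5), with 0 of 5 contigs in CD73- Treg. TRAJ34 was used by 5 of 71 nonproductive contigs in CD4 SP, or 7.04% (2.33 to 15.7), against 0.865% of productive chains in CD4 SP cells (0.495 to 1.40), with intervals apart. TRAJ38 was used by 2 of the 71, or 2.82% (0.343 to 9.81), against 0.0541% (0.00137 to 0.301), also apart. Thus 2 of 6 members were higher in nonproductive contigs of CD4 SP, where 9.52% of 42 segments were, and 0 of 6 were lower, where 2.38% were. TRAJ35 was found in neither set and is not among the 42. TRAJ33 was used by 0 of 71, against 2.22% of productive chains, with overlap. In DP, TRAJ34 was used by 3 of 77 nonproductive contigs, or 3.90% (0.811 to 11), against 3.32% of productive chains (2.40 to 4.46). There 0 of 6 members were called in either direction, where 0% of 43 segments were. TRAJ35 was used by 2 of the 301 nonproductive contigs, against 3 of 6982 productive chains. How these barcodes and contigs differ from the cells of the main measurement was not tested, nor was the origin of the nonproductive contigs.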

How the results depend on the processing

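Of 381 values recomputed under alternatives, 363 moved by less than their counting interval and 18 by more, and 0 reversed. Counting each different CDR3 once gave shares of the 6 segments of 10.9% for CD4 SP, 9.75% and 10.8% for the CD25+ and Foxp3lo TRP and 6.73% for CD73+ Treg, and counting each nucleotide sequence once gave 9.63% in CD4 SP and 8.72% in CD25+ TRP. By different CDR3 the shares in CD4 SP clusters 1 and 2 were 10.9% and 11.2%. Per 20 cells, nucleotide sequences gave 19.5 in CD4 SP and 19.3 in CD73+ Treg. Without cluster 9, an alternative chosen after seeing the data, the share in CD73+ Treg was 3.40%. Beside the main setting, 7 alternatives were run for CD4 SP against DP. TRAJ34 was lower in CD4 SP in 7 of them, TRAJ38 in 4 and the 6 segments together in 2, so the call for the group rests on the setting; it ends, for example, with TRAV14 chains alone (7.75% in CD4 SP, 6.57 to 9.07, and 10.1% in DP). Of 8 alternatives for CD73+ Treg against CD4 SP, the group was lower in 5 and overlapped in 3. The lower calls include the alternative without cluster 9, which drops CD73+ Treg cells already seen to have a high share. It therefore adds no separate evidence, and this call for the group also rests on the setting. No paired analysis was possible because there was 1 pool and the 3 samples are library types. With 14 cells of the 6 segments, CD73- Treg limits each comparison it enters, and TRAJ35 and TRAJ38 are too rare for ratios.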

Other observations

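Along the TRAV14 family, distance from the J array and use of the 6 segments were set side by side in DP. TRAV14-3, the copy nearest the array, was joined to one of the 6 segments in 12.4% of its 161 cells (7.76 to 18.5) and to TRAJ47 to TRAJ58 in 62.7% (54.8 to 70.2). TRAV14D-3-DV8 was joined to one of the 6 segments in 7.01% of its 214 cells (3.98 to 11.3) and to TRAJ2 to TRAJ26 in 68.2% (61.5 to 74.4). TRAV14-1 and TRAV14-2 were spread over the array, with 14.2% of 212 and 15.4% of 149 cells on the 6 segments.

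The first residues of the CDR3 were compared between the 6 segments and other TRAJ. CAAS opened 45.2% of the different CDR3 of the 6 segments in DP (36.4 to 54.3), against 55.9% for other TRAJ (52.7 to 59.1). It opened 59.8% of their different CDR3 in CD4 SP (49.6 to 69.4), against 63.8% for other TRAJ (60.5 to 67.1). CAAR opened 23.2% in CD25+ TRP (15.3 to 32.8), against 13.2% for other TRAJ (11.1 to 15.6), and 10.8% in CD4 SP (5.51 to 18.5), against 10.9% (8.87 to 13.2). All of these pairs of intervals overlap.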
